A study of Mus musculus with 4 samples.

Results

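Poly(A)-binding proteins and 2 of their interactors were followed in the first pharyngeal arch of mouse embryos: Pabpc1, Pabpc4, Pabpn1, Paip1 and Paip2. The 5 genes were taken by symbol from 52459 rows of the deposited table. Pabpc1 was chosen by its measured values in this contrast, as the gene that ranked first among all falls in the transgenic arch, so its difference is described here and not tested. The other members were chosen as its relatives and interactors, with earlier results of these data known. All 5 had a mean of at least 10 normalized reads, the minimum for a test, as did 16746 genes in all.

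The arch was dissected at E9.5 to E9.75, at 25 to 27 somites, from embryos of 2 genotypes with 2 libraries each. One genotype was wild-type. The other, Wnt1-Cre;pMes-Bmp4, carries a Cre recombinase driven in the neural crest and a Bmp4 transgene that Cre switches on. No group carried Wnt1-Cre or pMes-Bmp4 alone, strain and sex are not given in the labels, and the labels do not tie libraries to separate embryos. What p-values measure here is the spread between these libraries, which may be technical. The series title names a model of syngnathia, a fusion of the jaws, with disturbed molar patterning.

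A cytoplasmic messenger RNA ends in a tail of adenosines that is coated by cytoplasmic poly(A)-binding proteins. These proteins also contact eIF4G on the cap-binding complex, which brings the ends of the message together and favours translation, and they set how deadenylases reach the tail. A C-terminal domain of the cytoplasmic proteins docks partners that carry a short motif called PAM2, among them PAIP1, which stimulates translation, and PAIP2, which releases the protein from the tail and represses translation. A different protein, PABPN1, binds the growing tail in the nucleus. Pabpc1 messenger RNA is itself known as a TOP message, a class with a pyrimidine-rich start whose translation follows growth signals, and its leader holds an A-rich stretch bound by its own product.

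Libraries held between 29607541 and 47849092 reads assigned to genes. Bmp4 was at 681.7 and 437.1 normalized reads in wild-type, against 2656 and 1745 in Wnt1-Cre;pMes-Bmp4. All 8 crest mesenchyme markers were high enough to test (1 called lower, 2 higher), and genes of more posterior arches (Hoxa2, Hoxb2, Hoxa3, Hoxb3 and Hoxd3) summed to between 4.11 and 9.64 normalized reads per library. Markers of other cells moved with genotype. The 7 erythroid markers summed to 674069 and 613190 normalized reads in wild-type, against 340830 and 380857 in Wnt1-Cre;pMes-Bmp4, with 2 called lower. The 7 epithelial markers summed to 23244 and 17561 against 32003 and 29890, with 2 called higher. Endothelial, mesodermal and neuronal markers summed to between 3219 and 3279, 2483 and 2674, and 1040 and 1412 in wild-type, against 3956 to 4401, 3668 to 3741, and 2022 to 2358. The neuronal sum was led by Isl1, the 1 neuronal marker called higher (827.1 and 562.6 against 1786 and 1667), while 4 of the 6 neuronal markers had log2 fold changes below 0 and the list's median was -0.29. No marker listed was at 0 in all libraries. The part of these cells in the values below was not tested. In RNA of a whole arch, fewer cells of a type and less RNA per cell cannot be told apart.

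Pabpc1, the main cytoplasmic poly(A)-binding protein, had 20231 and 23511 normalized reads in the wild-type libraries, against 6018 and 6015 in the Wnt1-Cre;pMes-Bmp4 libraries. The groups did not overlap, and the transgenic libraries were nearly equal while the wild-type ones differed 1.16-fold. Its mean went from 21871 ± 2319 to 6017 ± 2.36 (SD, n = 2 each). The transgenic level was 3.64-fold lower, or -1.86 ± 0.13 (SE) as a log2 fold change. These means rest on 27275 and 22859 whole reads in wild-type, and on 5643 and 4961 in Wnt1-Cre;pMes-Bmp4. Among all rows of the table Pabpc1 stood 249th by its wild-type mean and 1083rd by its transgenic mean.

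The ranking that chose Pabpc1 was by limma p among genes with a negative fold change. The genes just behind it were Smoc1, Hmga2, mt-Nd6, Pcdh19 and Kpnb1, with log2 fold changes of -2.92, -1.61, -1.54, -2.29 and -1.36. Pabpc1 was not first by size. Its SE of 0.13 was smaller than that of Smoc1 (0.24), a secreted matrix protein, and that of Hmga2 (0.14), a chromatin protein of embryonic cells. The SE of Kpnb1 was slightly smaller than that of Pabpc1, at 0.1275 against 0.1288.

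**Figure D1:**
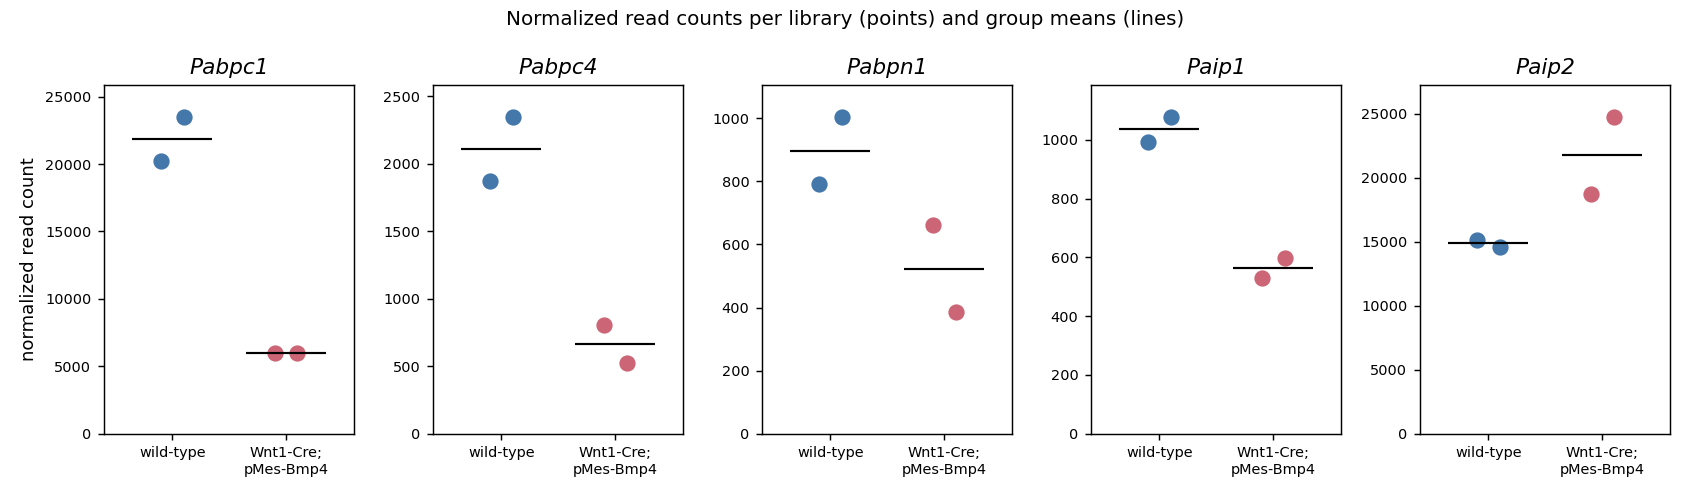
Normalized read count (vertical axes, from 0) of each member in the 2 wild-type and 2 Wnt1-Cre;pMes-Bmp4 libraries; points are libraries and lines are group means. Pabpc1, Pabpc4, Pabpn1 and Paip1 lie lower in both transgenic libraries than in both wild-type ones, and Paip2 lies higher, from 14587 and 15185 to 18755 and 24792.

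Pabpc1 lies on chromosome 15 at 36595661 to 36609668 of GRCm38, on the minus strand, with 10 annotated transcripts. Its reads could be shared with copies of its sequence. Aligned to the other annotated transcripts, an annotated Pabpc1 coding transcript matched the retrogenes Pabpc2 and Pabpc6 over 2436 and 2033 bases at 80.9% and 81.3% identity. It matched the processed pseudogenes Gm8276 and Gm16580 over 1626 and 1052 bases at 94.8% and 97.1% identity. Gm16580 was at 117.9 and 160.5 normalized reads in wild-type, against 67.19 and 42.44 in Wnt1-Cre;pMes-Bmp4. These are 0.583% and 0.682% of the Pabpc1 value in wild-type and 1.116% and 0.706% in the transgenic libraries. The other 3 copies were at no more than 8.49 normalized reads in any library. Reads left uncounted because they fit several genes cannot be seen in these values.

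Pabpc4, a second cytoplasmic poly(A)-binding protein first described in activated T cells, fell as well. It had 1870 and 2349 normalized reads in wild-type, against 808.4 and 523.8 in Wnt1-Cre;pMes-Bmp4. Both transgenic libraries lay below both wild-type ones, with a wider spread in the transgenic pair, 1.54-fold, than for Pabpc1. The mean was 2110 ± 339 against 666.1 ± 201 (SD, n = 2 each), 3.17-fold lower. On the log2 scale this was -1.69 ± 0.23 (SE), and limma gave an adjusted p of 0.0211 over all genes tested. The lowest of the 4 values rests on 432 reads. Leaving out wild-type replicate 1 ended the call (-1.85, limma adjusted p 0.115), as did leaving out wild-type replicate 2 (-1.52, adjusted p 0.348). Without either library no more than 1 gene of the whole table passed.

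Pabpc4 lies on chromosome 4 at 123262351 to 123298925 of GRCm38, on the plus strand. The RefSeq promoter table (GRCm38.p6, 250 bases before to 50 after an annotated start) held 3 of the 5 members: Pabpc4, Pabpn1 and Paip1. The Pabpc4 stretch is shown because it carries a TATA motif, and the 30 bases from its leader because adenosine runs are what these proteins bind. Capitals in the first mark TATAAA and GGGCGG on either strand, and in the second every A.
Pabpc4 promoter, chr4:123282705-123282824, plus strand: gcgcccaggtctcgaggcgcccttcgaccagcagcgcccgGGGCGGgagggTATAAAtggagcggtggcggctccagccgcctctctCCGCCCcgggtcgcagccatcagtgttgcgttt
Pabpc4 leader, chr4:123282891-123282920, plus strand: tAAAAAAAAAAAAAAgAAAAgAAAAgAAgA
The first stretch ends at the last base before exon sequence annotated in GENCODE M21. It lies inside the annotated gene, which begins upstream at 123262351, and not at its first annotated base. All 30 bases of the second lie in untranslated exon sequence annotated there for Pabpc4, and 25 of them are A. The RefSeq start lies inside these 30 bases, so part of them precedes it. Of 32851 RefSeq windows of 300 bases, 0.444% held 30 bases at least as rich in A on the sense strand. TATAAA occurred in 13.6% and GGGCGG in 35.7% of the windows on either strand. These matches describe the sequence and show no binding.

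Pabpn1, the nuclear protein that stimulates poly(A) polymerase and limits the length of new tails, was lower by a smaller amount and did not pass. It had 790.0 and 1005 normalized reads in wild-type, against 660.2 and 386.8 in Wnt1-Cre;pMes-Bmp4. The groups did not overlap, but the transgenic libraries differed 1.71-fold, as much as the group means did (1.71-fold). The log2 difference was -0.82 ± 0.27 (SE), and the limma adjusted p was 0.1001. DESeq2 on the recovered reads gave -0.79 and an adjusted p of 0.0337, a call that 9.39% (lower) and 7.37% (higher) of all genes received there. Without Wnt1-Cre;pMes-Bmp4 replicate 1, the library with the higher transgenic value, Pabpn1 was at -1.20 on the log2 scale. Without replicate 2 it was at -0.43. Each of these values rests on a lone transgenic library.

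Pabpn1 lies on chromosome 14 (54892500 to 54898169 of GRCm38, plus strand). It shares 651 exon bases with Gm20521, a protein-coding locus on the same strand that was listed at 0 in all 4 libraries. Reads left uncounted because they fall on both genes cannot be seen in these values. The Pabpn1 stretch is shown for comparison with that of Pabpc4, with CCAAT in capitals. Like that one, it lies inside the annotated gene, downstream of its first base. It holds CCAAT, which occurred in 37.4% of the windows on either strand, and neither TATAAA nor GGGCGG.
Pabpn1 promoter, chr14:54894028-54894147, plus strand: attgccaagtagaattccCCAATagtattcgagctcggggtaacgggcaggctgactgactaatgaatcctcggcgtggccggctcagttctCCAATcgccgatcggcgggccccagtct
In the window of Paip1, GGGCGG was found, and TATAAA and CCAAT were not.

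Paip1, the interactor that stimulates translation, fell too. It had 992.5 and 1079 normalized reads in wild-type, against 530.1 and 596.5 in Wnt1-Cre;pMes-Bmp4. Libraries of a genotype differed 1.087-fold and 1.13-fold, well under the 1.84-fold gap between the means of 1036 ± 61.1 and 563.3 ± 47.0 (SD, n = 2 each). Its log2 difference of -0.88 ± 0.16 (SE) passed in limma, adjusted p 0.0276. As for Pabpc4, leaving out wild-type replicate 1 ended the call (-0.94, limma adjusted p 0.151), and so did leaving out wild-type replicate 2 (-0.82, adjusted p 0.379). Paip1 lies on chromosome 13 at 119428601 to 119458218 of GRCm38, plus strand, with no other annotated gene overlapping it.

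Paip2, the interactor that inhibits poly(A)-binding protein, was the member with a higher value in the transgenic arch. It had 15185 and 14587 normalized reads in wild-type, against 18755 and 24792 in Wnt1-Cre;pMes-Bmp4. Both transgenic libraries were above both wild-type ones, and they differed 1.32-fold from each other. The mean was 14886 ± 423 against 21774 ± 4269 (SD, n = 2 each), 1.46-fold higher. Its log2 difference of 0.53 ± 0.16 (SE) missed the threshold in limma (adjusted p 0.0787), whereas DESeq2 called it higher (0.54, adjusted p 0.0161). Its log2 difference was 0.74 without Wnt1-Cre;pMes-Bmp4 replicate 1 and 0.33 without replicate 2, each resting on a lone transgenic library. Paip2 lies on chromosome 18 (35598617 to 35617187 of GRCm38, plus strand). It overlaps Slc23a1 on the other strand without sharing exon bases.

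Of the 4 members other than Pabpc1, 2 were called lower and 0 higher in limma, and edgeR on the recovered reads gave the same counts. Across all genes tested, limma called 5.28% lower and 2.97% higher, and edgeR 5.46% and 2.44%. DESeq2 called 9.39% and 7.37%. An unadjusted limma p under 0.05, in either direction, was found for 4816 of 16746 genes. Both transgenic libraries lay below both wild-type ones for Pabpc4, Pabpn1 and Paip1 and above them for Paip2. Such separation was frequent here: 29.7% of all genes tested were separated downwards and 30% upwards. Separation alone thus set no member apart from the table.

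Levels of different genes can be compared per length. Per kb of the longest annotated transcript, the wild-type mean was 9487 ± 270 normalized reads for Paip2 and 7500 ± 795 for Pabpc1. Pabpc4, Pabpn1 and Paip1 followed at 666.3 ± 107, 505.6 ± 85.6 and 406.0 ± 24.0 (SD, n = 2 each). On this scale the order was the same in both wild-type libraries. In Wnt1-Cre;pMes-Bmp4 Paip2 stood at 13877 ± 2721 and Pabpc1 at 2063 ± 0.809. Pabpn1, Paip1 and Pabpc4 stood at 294.9 ± 109, 220.8 ± 18.4 and 210.4 ± 63.6, and their libraries overlapped, so that these 3 had no order there on this scale. The order depended on the length used. With the median transcript length, Pabpc1 stood above Paip2 in wild-type (28646 against 18515 normalized reads per kb), and Pabpn1 (984.0) and Paip1 (751.0) had higher means than Pabpc4 (737.7), whose libraries overlapped those of Paip1. In Wnt1-Cre;pMes-Bmp4 Pabpc4 was then lowest, at a mean of 232.9, and its libraries did not overlap those of Paip1 (mean 408.5) or Pabpn1 (574.0). The median Pabpc1 transcript has 763.5 annotated bases, and the longest, a retained-intron form, 2916.

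**Figure D2:**
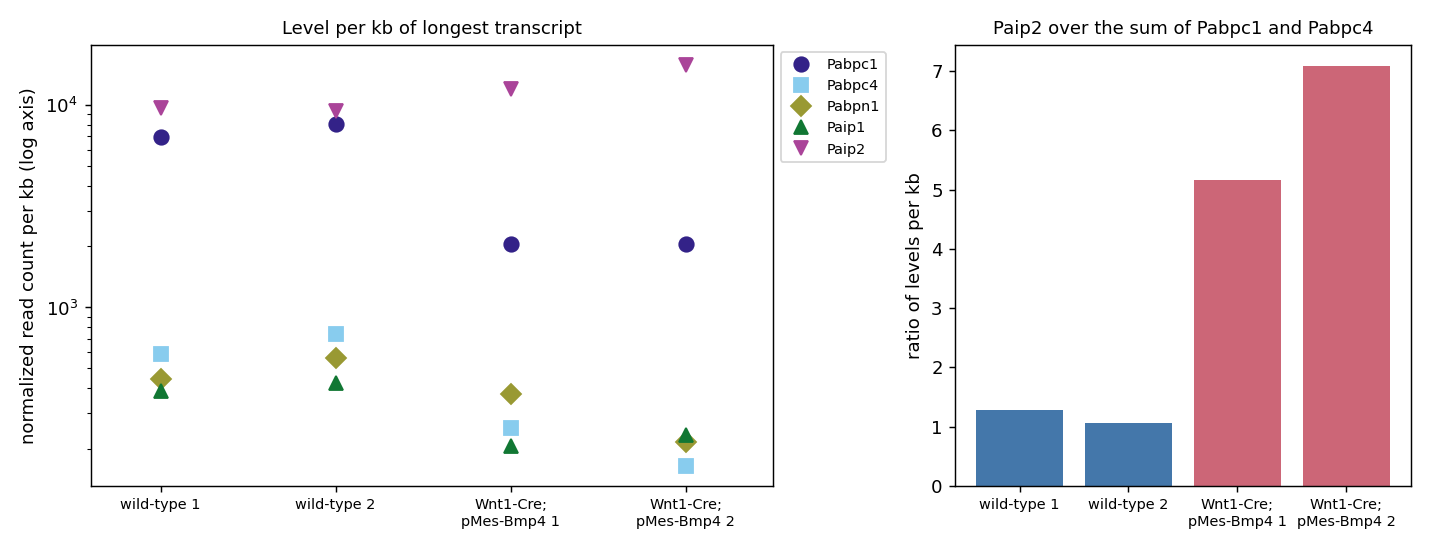
Left, normalized read count per kb of the longest transcript (log axis) for the 5 members in each library; right, the ratio of the Paip2 level to the summed Pabpc1 and Pabpc4 levels per kb in each library, with an axis from 0. Paip2 and Pabpc1 lie close together in wild-type and apart in the transgenic libraries, where the ratio is 5.15 and 7.09 against 1.29 and 1.06.

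A ratio of members within a library does not depend on how libraries were scaled. The Paip2 level per kb was 1.29 and 1.06 times the sum of Pabpc1 and Pabpc4 in wild-type, but 5.15 and 7.09 times that sum in Wnt1-Cre;pMes-Bmp4. With the median transcript length the ratios were 0.696 and 0.574 against 2.86 and 3.83. The ratio of Paip2 to Paip1, the inhibitor to the stimulator, was 24.9 and 22.0 in wild-type, against 57.5 and 67.6 in Wnt1-Cre;pMes-Bmp4. The ratio of Pabpc1 to Pabpc4 overlapped between genotypes, at 11.7 and 10.9 against 8.08 and 12.5. Since Pabpc1 was chosen for its fall, the ratios that hold it carry that choice and were not tested.

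Transcript length moved with genotype across the whole table. Taking genes above a mean of 50, those with transcripts between 1744 and 2264 bases had a median log2 difference of 0.24, and those with 6840 bases or more had one of -0.60. The members are not long: their longest transcripts have 2916 bases for Pabpc1, 3166 for Pabpc4, 1775 for Pabpn1, 2551 for Paip1 and 1569 for Paip2. Genes within 0.1 on a log2 scale of these lengths had median log2 fold changes between 0.16 and 0.22, above 0. After a correction of each library for transcript length, the log2 fold changes were -2.01 for Pabpc1, -1.80 for Pabpc4, -1.04 for Pabpn1, -1.08 for Paip1 and 0.32 for Paip2. The limma adjusted p values were then 0.0349 for Pabpc4, 0.0367 for Paip1, 0.0936 for Pabpn1 and 0.241 for Paip2. The 4 lower members were thus lower still against genes of their own length, and the Paip2 difference was smaller. That correction left 0.931% of all genes called lower and 0.61% higher. With GC content corrected as well, 4.6% and 3.99% were called, and Pabpn1 passed (-0.94, limma adjusted p 0.0490) while Paip2 was at 0.14.

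**Figure D3:**
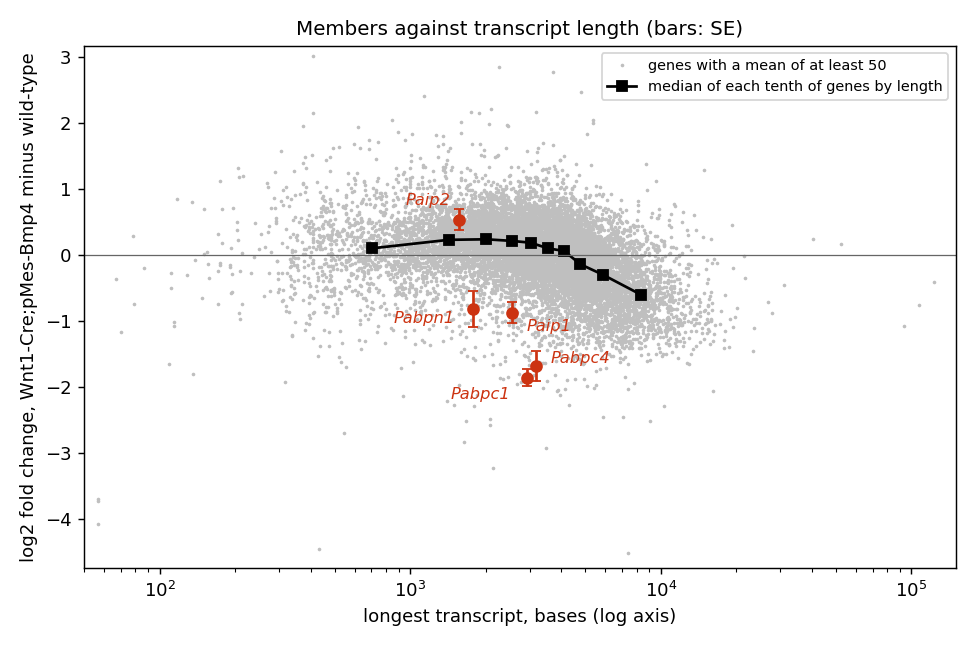
Log2 fold change, Wnt1-Cre;pMes-Bmp4 minus wild-type, against the length of the longest transcript (log axis); grey points are genes with a mean of at least 50, black squares medians in 10 equal bins of these genes by length, and red points the members with SE. Pabpc1 at -1.86 and Pabpc4 at -1.69 lie far below the medians for their length, which are above 0.

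Over the 4 libraries, the genes whose pattern lay closest to that of Pabpc1 were Hira, Kctd12, Lrfn3, Maml1 and Tcf20, out of 11091 named genes above a mean of 50. Likeness was the Euclidean distance between mean-centred log2 values, from 0.136 for Hira to 0.235 for Tcf20. Hira, a chaperone of a replacement histone, went from 420.6 and 528.7 to 133.3 and 120.03 normalized reads. Maml1, a coactivator of Notch, went from 598.6 and 722.0 to 213.3 and 175.8. Pabpc4 was at a distance of 0.480, with 57 genes closer to Pabpc1. Paip1 and Pabpn1 were at 0.989 and 1.178, with 669 and 1117 genes closer. With 4 libraries many genes can share a pattern, and no test goes with these distances.

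No other poly(A)-binding gene passed the test. Of 8 listed, 4 were high enough to test and none passed in limma (0 lower, 0 higher, with 1 at an unadjusted p under 0.05), nor in edgeR or DESeq2 (0 and 0). Across all genes limma called 5.28% lower and 2.97% higher, and 4816 of 16746 had an unadjusted p under 0.05. Zc3h14, a zinc finger protein that binds poly(A) in the nucleus, was at 5225 and 4035 in wild-type, against 5830 and 6839 in Wnt1-Cre;pMes-Bmp4 (log2 fold change 0.46 ± 0.16 (SE), limma adjusted p 0.120). Pabpc4l, a relative of Pabpc4, was at 397.6 and 376.4 against 299.7 and 322.5 normalized reads (-0.31 ± 0.18 (SE), adjusted p 0.303). The Paip2 relative Paip2b gave -0.03 ± 0.15 (SE), and Pabpc1l, known from oocytes, gave -0.12 ± 0.40 (SE). Pabpc2, Pabpc5, Pabpc6 and Pabpn1l had means under 10 and were not tested.

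Partners that dock on or regulate the cytoplasmic proteins fell or did not pass. Of 16 tested, 7 were called lower and 0 higher in limma, beside 5.28% and 2.97% of all genes. At an unadjusted p under 0.05, 10 were lower and 0 higher, beside 4816 of 16746 genes in either direction. EdgeR and DESeq2 called 0 higher, beside 2.44% and 7.37% of all genes. Their median log2 difference was -0.60, beside 0.02 over all genes tested. For this and the lists below, no called gene kept its call without wild-type replicate 1 or without wild-type replicate 2. Tnrc6a, which recruits deadenylases to microRNA targets, went from 1659 and 1809 to 967.3 and 916.6 normalized reads, a log2 fold change of -0.88. Msi1, an RNA-binding protein known to compete with eIF4G for poly(A)-binding protein, went from 378.3 and 605.8 to 177.0 and 126.1, a log2 fold change of -1.67. Larp1, which binds TOP messages, and Atxn2, which carries a PAM2 motif, had log2 fold changes of -0.99 and -0.77. Limma adjusted p values of these 4 genes were 0.0235, 0.0268, 0.0328 and 0.0340.

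These partners have long transcripts, with a median of 6125 bases. After the length correction 1 of the 16, Msi1, was called lower (log2 fold change -1.80, limma adjusted p 0.0369), beside 0.931% of all genes. Tnrc6a, Larp1 and Atxn2 were then at -0.38, -0.60 and -0.36. The median of the list was then -0.34. The release factor genes Gspt1 and Etf1, which bind or act beside poly(A)-binding protein at the stop codon, were at -0.39 and 0.24 on the log2 scale and did not pass.

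**Figure D4:**
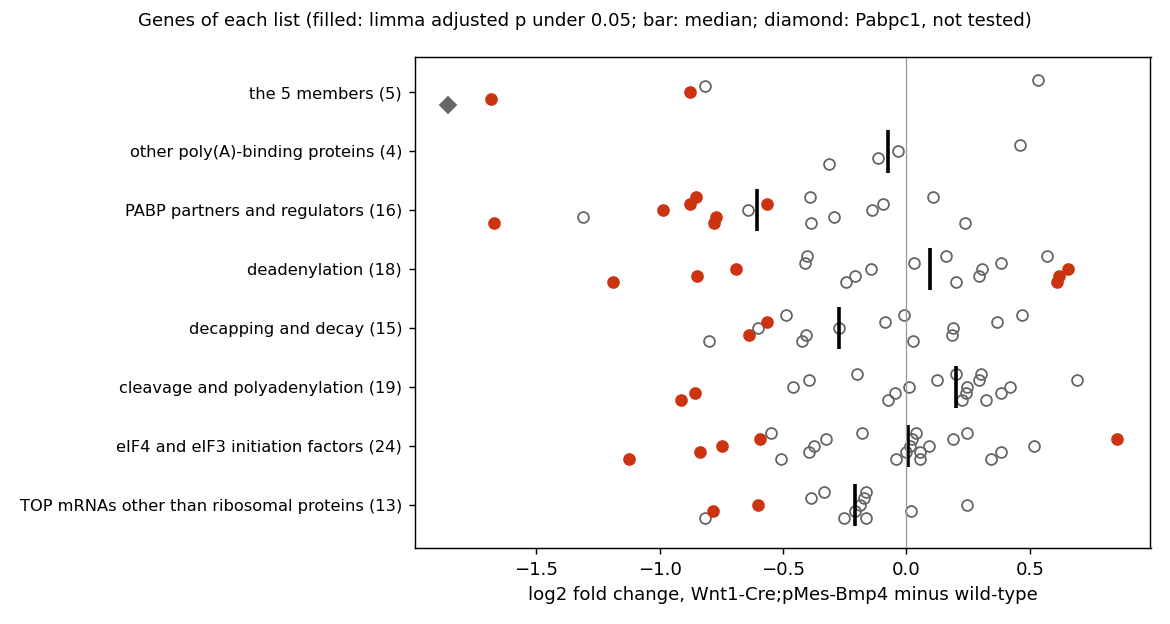
Log2 fold change, Wnt1-Cre;pMes-Bmp4 minus wild-type, for the 5 members (top row, no median) and the genes tested in each list, whose number stands in brackets; filled points have a limma adjusted p under 0.05, black bars are list medians, and the diamond is Pabpc1. The partners lie mostly left of 0, with a median of -0.60. Deadenylation genes spread to both sides, with 3 called lower and 3 higher, beside 5.28% and 2.97% of all genes.

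The translation factors that complete the loop between cap and tail moved in both directions. Of 24 eIF4 and eIF3 genes tested, 4 were lower and 1 was higher in limma, beside 5.28% and 2.97% of all genes, with a median log2 fold change of 0.01. The counts were 9 and 3 at an unadjusted p under 0.05, beside 4816 of 16746 genes in either direction. In edgeR they were 4 and 1, beside 5.46% and 2.44% of all genes. With the replicate number as a block they were 2 and 1. DESeq2 called 8 and 2, beside 9.39% and 7.37% of all genes. Eif4g1, the scaffold that binds poly(A)-binding protein, went from 8559 and 9976 to 4805 and 3730 normalized reads. This fall of -1.13 ± 0.16 (SE) on the log2 scale had a limma adjusted p of 0.0218. Eif4g1 was the 1 gene of this list that passed after the length correction (-0.84, limma adjusted p 0.0474). That correction left 0.931% of all genes called lower and 0.61% higher. Eif4b, a cofactor of the eIF4A helicase, Eif4ebp2, an inhibitor of the cap-binding protein, and Eif4g3, a second scaffold, had log2 fold changes of -0.59, -0.84 and -0.75. Eif3l rose, from 8239 and 6929 to 12445 and 14987 (log2 fold change 0.85 ± 0.15 (SE), limma adjusted p 0.0270). The cap-binding protein Eif4e gave 0.52 and did not pass (adjusted p 0.107).

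Other TOP messages, the class of Pabpc1, lay between -0.81 and 0.25 on the log2 scale. Of 13 non-ribosomal TOP genes tested, 2 were lower and 0 higher in limma, beside 5.28% and 2.97% of all genes. The median log2 fold change of the 13 was -0.21. At an unadjusted p under 0.05 the counts were 3 lower and 0 higher, beside 4816 of 16746 genes in either direction. DESeq2 gave the same counts, beside 9.39% and 7.37% of all genes. EdgeR called 2 lower and 0 higher, beside 5.46% and 2.44%. Eef2, which moves the ribosome along the message, went from 23095 and 26577 to 15103 and 13738 normalized reads, which is -0.78 ± 0.13 (SE) on the log2 scale (limma adjusted p 0.0264). Tpt1, an abundant growth-related protein, gave -0.60 ± 0.12 (SE), with an adjusted p of 0.0361. Eef1a1, which delivers transfer RNA to the ribosome, gave -0.25 and did not pass (adjusted p 0.325).

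Deadenylation genes, whose products shorten the tail, were called in both directions in limma: 3 lower and 3 higher of 18 tested. This stood beside 5.28% and 2.97% of all genes, and the median log2 fold change of the list was 0.10. Pan3, which brings the PAN2 nuclease to poly(A)-binding protein, went from 573.4 and 708.7 to 261.3 and 298.3 normalized reads (log2 fold change -1.19 ± 0.20 (SE), limma adjusted p 0.0253). The other 2 lower genes, Cnot6 and Cnot6l, encode the alternative CCR4-type nucleases of the CCR4-NOT complex and gave -0.69 and -0.85. Of the 3 higher genes, Cnot7 and Cnot8 encode its alternative CAF1-type nucleases and gave 0.61 and 0.65, and Parn, a separate poly(A)-specific nuclease, gave 0.62. Cnot8 went from 2395 and 2473 to 3694 and 3976 normalized reads, and Cnot6 from 5188 and 5463 to 3027 and 3589. After the length correction none of the 18 passed in limma (0 lower, 0 higher), beside 0.931% lower and 0.61% higher of all genes. Pan3 was then at -0.91 (adjusted p 0.0578), Cnot6 and Cnot6l, with transcripts of 5736 and 8564 bases, were at -0.39 and -0.32, and Cnot7 and Cnot8 at 0.63 and 0.44. With the replicate number as a block the counts were 1 lower and 0 higher.

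Most genes whose products make the tail did not pass. Of 19 cleavage and polyadenylation genes tested, 2 were lower and 0 higher in limma, beside 5.28% and 2.97% of all genes. The counts were 4 and 5 at an unadjusted p under 0.05, beside 4816 of 16746 genes in either direction. In edgeR they were 2 and 0, beside 5.46% and 2.44% of all genes. DESeq2 called 2 and 1, beside 9.39% and 7.37% of all genes. The median of the list was 0.20 on the log2 scale. The lower genes were Cpsf7, a subunit of cleavage factor I, from 790.0 and 769.3 to 393.5 and 435.3 normalized reads, and Rbbp6, from 2389 and 2458 to 1270 and 1410. Their log2 fold changes were -0.91 and -0.86, with limma adjusted p values of 0.0274 and 0.0233. After the length correction Cpsf7 kept its call (-0.97, limma adjusted p 0.0467) while Rbbp6 did not (-0.50, 0.102). That correction left 0.931% of all genes called lower. Papola, the main nuclear poly(A) polymerase, gave 0.24 and did not pass.

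Of 15 decapping and decay genes tested, 2 were lower and 0 higher in limma, beside 5.28% and 2.97% of all genes. The counts were 6 and 2 at an unadjusted p under 0.05, beside 4816 of 16746 genes in either direction. In edgeR they were 2 and 0, beside 5.46% and 2.44% of all genes. DESeq2 called 5 and 1, beside 9.39% and 7.37% of all genes. The median log2 fold change of the list was -0.27. The 2 lower genes were Dcp2, the decapping enzyme, and Ddx6, a helicase that links deadenylation to decapping. Dcp2 went from 2199 and 2177 to 1367 and 1449 normalized reads, and Ddx6 from 3302 and 3577 to 2263 and 2378. Their log2 fold changes were -0.64 and -0.57, with limma adjusted p values of 0.0356 and 0.0425. Neither was called after the length correction (-0.11 and -0.23), which left 0.931% of all genes called lower. Their longest transcripts have 8616 and 6065 bases.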

How the data were processed

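PolyA-selected RNA was sequenced from 4 libraries, per the labels' protocols. The deposited values are a normalized signal, which the authors made by dividing featureCounts read counts by a size factor per library, per the file headers. Trimming with fastp 0.21.0 and the build mm10 are named, per the submitters' processing notes. No source used here gives the aligner, annotation or strand setting. Whole reads were recovered for 100% of values, within 0.01 of a whole number.

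The main test was limma 3.58.1 (R 4.3.3) with a trend, on log2(value + 1), for genes with a mean of at least 10, two-sided, with Benjamini-Hochberg adjustment over all genes and a threshold of 0.05. This scale understates changes of low genes. The fit had 2 residual and 5.26 prior degrees of freedom. An exact permutation test of 2 against 2 cannot give a p below 0.333. On the recovered reads edgeR 4.0.16 called 915 genes lower and 409 higher. DESeq2 1.42.0 was also run.

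Members and gene lists were chosen with earlier results of these data known. Named were the members, up to 4 called genes per list in order of p (or, with fewer calls, the first 2), and the neighbours of Pabpc1 in rank and pattern. Eif4g3, Cnot7, Parn, Gspt1, Etf1, Eif4e, Eef1a1, Papola, Paip2b and Pabpc1l were named after their values were seen. Lengths came from the longest GENCODE M21 transcript (GRCm38), found for 96.9% of genes tested. The length correction subtracted, per library, a spline with 4 degrees of freedom fitted on genes above a mean of 50. Copies of Pabpc1 were found with BLAST 2.17.0, with alignments of at least 300 bases. The steps were tested on simulated data.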

Additional observations from a re-analysis of the deposited data

How the results depend on the processing

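The 5 members kept their direction under every alternative run: pseudocounts of 0.5 and 5, a filter at a mean of 50 or none, TMM scaling, the replicate block, each library left out, edgeR, DESeq2 and both length corrections. The log2 fold change of Pabpc1 was -2.01 after the length correction and -2.16 after the length and GC correction. Pabpn1 passed in DESeq2 (-0.79) and after the length and GC correction (-0.94, limma adjusted p 0.0490), and Paip2 in DESeq2 (0.54). With 1 library left out, the lone library of its group is assumed to vary like the other group. The log2 fold changes then ran from -1.97 to -1.75 for Pabpc1, -1.998 to -1.37 for Pabpc4 and -1.20 to -0.43 for Pabpn1. For Paip1 they ran from -0.96 to -0.79, and for Paip2 from 0.33 to 0.74.

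Counts over all genes, 884 lower and 498 higher in limma, depended on the libraries: they ran from 0 to 2719 lower and 0 to 2675 higher with 1 library left out. Without wild-type replicate 1 there were 0 and 0 (3185 at an unadjusted p under 0.05). Leaving out wild-type replicate 2 gave 0 lower and 1 higher (1806 unadjusted). DESeq2 gave 1573 lower and 1234 higher, and the length correction 151 and 99. The replicate numbers are not said to pair libraries. Deviations of same-numbered libraries correlated at -0.147, and the replicate block gave 543 lower and 165 higher, while the crossed pairing, chosen after seeing the data, gave 1952 and 1763. The block changed the call of no member.

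List counts with 1 library left out ran from 0 to 11 lower and 0 to 1 higher for partners, 0 to 5 and 0 to 5 for deadenylation, 0 to 6 and 0 to 2 for decapping and decay, 0 to 3 and 0 to 4 for cleavage and polyadenylation, 0 to 8 lower and 0 to 5 higher for initiation factors, 0 to 5 lower for TOP messages and 0 to 1 higher for other poly(A)-binding genes. With the block, partners had 4 lower, deadenylation 1 lower and 0 higher, decapping 0 lower, initiation factors 2 lower and TOP messages 1 lower. DESeq2 gave 5 lower and 1 higher for decapping, 1 higher for cleavage and 8 lower and 2 higher for initiation factors, and a mean of at least 50 gave 4 lower for decapping. After the length correction partners, cleavage, initiation factors and TOP messages had 1 lower each, initiation factors 0 higher, deadenylation 0 lower and 0 higher, and decapping 0 lower. That correction left 0.931% of all genes called lower and 0.61% higher. After the length and GC correction partners had 2 lower and 1 higher, decapping 1 higher, cleavage 4 higher, initiation factors 2 higher and TOP messages 5 lower. Of all genes, 4.6% were then called lower and 3.99% higher. The cause of these changes was not tested.

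With the median transcript length, levels per kb in wild-type and Wnt1-Cre;pMes-Bmp4 were 28646 and 7880 for Pabpc1, 737.7 and 232.9 for Pabpc4, 984.0 and 574.0 for Pabpn1, 751.0 and 408.5 for Paip1 and 18515 and 27081 for Paip2.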
